A study of Mus musculus with 8 samples.

Results

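The glucocorticoid receptor gene Nr3c1 and 7 genes tied to glucocorticoid signalling were followed in mouse 3T3-L1 cells: Hsd11b1, Tsc22d3, Fkbp5, Sgk1, Zbtb16, Ddit4 and Cdkn1c. These 8 genes were taken by name from the 20668 named genes of the array, with every probe mapped to them, which gave 9 probes. 3T3-L1 is a line of mouse fibroblasts able to take on a fat-cell character, and here it had grown in DMEM with 10% fetal calf serum and then stood in an adipogenic medium for 1 week. The medium's composition is not given in the sources used here, so whether it held a glucocorticoid was not known. The cells then received the 2-fold diluted supernatant of human HL-60 leukemia cells, which had been cultured for 5 days in Opti medium with 30 nM PMA, a phorbol ester that turns them macrophage-like. In the control groups the HL-60 cells carried a mock vector, and in the knockdown groups (KD in the plots) they had lost USP2, which removes ubiquitin from proteins, to a knockdown. RNA was taken after 3 h or 6 h, so the 4 groups were control 3 h, knockdown 3 h, control 6 h and knockdown 6 h, with 2 arrays each. All 4 groups thus shared the differentiation, the phorbol ester and the HL-60 supernatant, and no group without supernatant was analysed here. The arrays are labelled biological replicates, with no word on whether wells of a group got the same batch of supernatant, so the spread behind the p-values may be technical. The knockdown was made in human cells, so the mouse arrays do not check it.

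The receptor encoded by Nr3c1 waits in the cytoplasm in a complex with heat shock proteins and immunophilins. When cortisol or corticosterone binds, it moves to the nucleus, where it binds DNA at glucocorticoid response elements and also dampens inflammatory genes through other transcription factors. Hsd11b1 encodes the enzyme that regenerates active glucocorticoid inside cells and is well known in fat tissue. Tsc22d3, Fkbp5, Sgk1, Zbtb16, Ddit4 and Cdkn1c are genes whose transcripts glucocorticoids raise in many cell types, several of them by receptor binding near the gene.

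By the scanner software's own test, 50.7% to 55.9% of an array's 59305 non-control spots stood well above background, and 0 were saturated. Replicate arrays differed more at 6 h than at 3 h, with a standard deviation (SD) of the log2 difference of 0.53 (control) and 0.39 (knockdown) at 6 h against 0.25 and 0.23 at 3 h. On the slide, control and knockdown arrays lay in different columns and the 2 times in different rows, so supernatant and column, and time and row, cannot be told apart. The labels call the cells adipocytes. Of 14 adipocyte markers, 5 passed that test on all 8 arrays (Pparg, Fabp4, Fabp5, Lpl and Cebpa) and 8 on none (Adipoq, Cidec, Cd36, Lep, Cfd, Adrb3, Car3 and Slc2a4), while 8 of 8 preadipocyte and fibroblast markers passed on all 8. Of 7 macrophage and leukocyte markers on the array, Csf1r, Lyz2, Itgam and Cd14 passed on all 8 arrays and Ptprc and Adgre1 on none. Of 8 endothelial and muscle markers, Pecam1, Kdr and Des passed on all 8 and the other 5 on none. In total RNA of a culture, fewer cells of a type and less RNA per cell cannot be told apart.

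In these cells 7 of the 8 genes were well above background on all 8 arrays. Cdkn1c was so on only 1 array and was not tested. The level of a gene is given as the log2 signal minus the array's 75th percentile, so 0 marks a spot as bright as that percentile. Levels are compared between arrays for 1 probe and never between genes. Where groups of 2 arrays are said not to overlap, the share of all features doing so was not counted. With knockdown supernatant averaged over both times, only Sgk1 passed the test, higher by 0.40 on the log2 scale, where 3.13% of all features were called. This call stood in only 11 of 19 alternative runs. From 3 h to 6 h in control supernatant Zbtb16 and Tsc22d3 rose while Sgk1, Fkbp5 and Ddit4 fell, where 39.9% of all features were called. The 2 rises were called in all 20 alternative runs, and the falls of Sgk1, Fkbp5 and Ddit4 in 19, 16 and only 5.

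A change was called at an adjusted p under 0.05 by limma with Benjamini-Hochberg adjustment over the 25798 genes and unnamed probes tested. Knockdown against control supernatant called 0 of the 7 members at 3 h, where 0.244% of all tested features were called (0.225% higher, 0.0194% lower), and 0 of 7 at 6 h, where 2.30% were called (1.60% higher, 0.698% lower). Without adjustment, 2 members at 3 h and 4 at 6 h had a p under 0.05, and 2725 and 4987 of all features did. Averaged over both times 1 of 7 members was called higher and 0 lower, against 3.13% of all features (2.16% higher, 0.965% lower). The difference between the effects at 6 h and 3 h called 0 of 7 members and 0% of all features, with 2 members and 2272 features at an unadjusted p under 0.05. Leaving out the first or second control 6 h array took the count over all features from 0 to 261 or 294, and leaving out the second knockdown 6 h array took it to 49, while 0 members were called in all 19 alternatives. The change from 3 h to 6 h called 5 of 7 members in control supernatant, where 39.9% of all features were called, and 4 of 7 in knockdown supernatant, where the share was also 39.9%. By direction, 2 members rose and 3 fell in control supernatant (16.3% and 23.6% of all features), and 2 rose and 2 fell in knockdown supernatant (17.7% and 22.2%). The split by direction over all features moved with the scaling. With array median scaling 967 of 1075 calls at 6 h and 1113 of 1220 averaged were higher, against 413 of 593 and 558 of 807, and with no scaling 51 of 96 at 6 h. Over time 2649 of 12383 calls in control and 3446 of 10509 in knockdown supernatant were rises with array median scaling, against 4200 of 10293 and 4566 of 10300, and with no scaling 3684 of 5498 in knockdown supernatant.

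**Figure D1:**
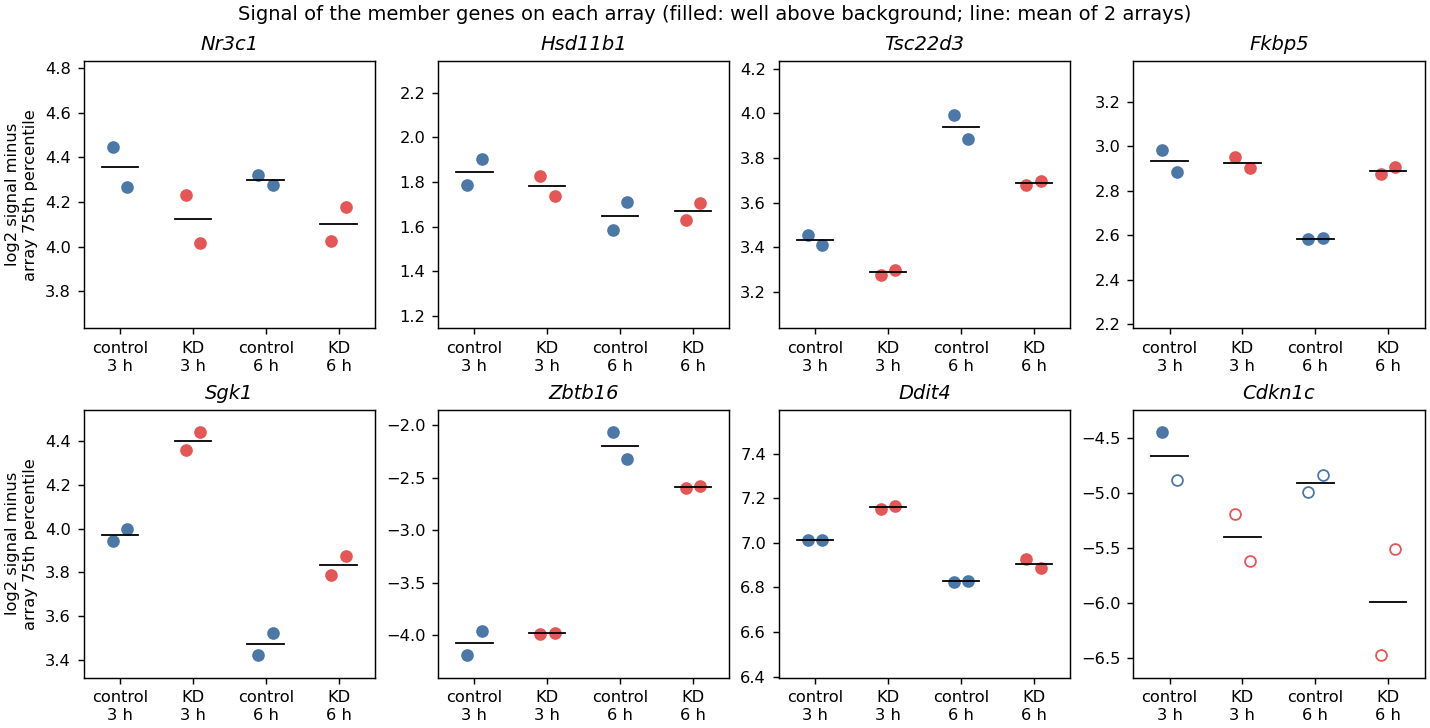
Level of each of the 8 genes on every array, as log2 signal minus the array's 75th percentile, in the 4 groups of 2 arrays; lines are group means, open circles are arrays where the probe was not well above background, and each panel has its own axis. Sgk1 lay higher with knockdown than with control supernatant at both times, Zbtb16 and Tsc22d3 lay higher at 6 h than at 3 h, and the control 6 h arrays of Fkbp5 lay below the other 6.

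RefSeq promoters (assembly GRCm38.p6, 250 bases before to 50 after a start) were used for 5 of the 8 genes, in 12 windows, 6 of them starts of Sgk1 and 3 of Tsc22d3. No window of Nr3c1, Zbtb16 or Cdkn1c was used. They were searched for the palindromic glucocorticoid response element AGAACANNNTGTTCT and for its 6-base arm AGAACA, on both strands. Each palindrome match also counts as matches of the arm. The palindrome stood in 3 of 32851 promoters of this length (0.00913%), and 1 of the 3 was a start of Sgk1. The arm stood in 6233 promoters (19%), in 3 of 6 Sgk1 starts, in 1 of 3 Tsc22d3 starts and in none of the windows of Fkbp5, Ddit4 and Hsd11b1. The windows of 4 called genes are printed 5′ to 3′ on the gene's strand to show where their letters differ, with matches in capitals. For Sgk1 the window printed is the 1 of 6 starts with the palindrome, and for Tsc22d3 the 1 of 3 with an arm. Their other starts are not printed. The Sgk1 window is chr10:21993640-21993939 (plus strand), with the palindrome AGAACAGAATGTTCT at chr10:21993701-21993715, starting 189 bases before the transcription start, and a further arm starting 242 bases before it. The Tsc22d3 window is chrX:140600473-140600772 (minus strand), with 1 arm starting 185 bases before the start. The windows without a match are Fkbp5 at chr17:28486100-28486399 and Ddit4 at chr10:59951721-59952020 (both minus strand).
Sgk1: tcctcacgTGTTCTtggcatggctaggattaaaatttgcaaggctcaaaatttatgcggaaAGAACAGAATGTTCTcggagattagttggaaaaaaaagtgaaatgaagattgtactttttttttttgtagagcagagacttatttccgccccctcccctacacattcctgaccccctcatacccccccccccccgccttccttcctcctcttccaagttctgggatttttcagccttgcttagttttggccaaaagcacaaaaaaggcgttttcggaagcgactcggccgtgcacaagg
Tsc22d3: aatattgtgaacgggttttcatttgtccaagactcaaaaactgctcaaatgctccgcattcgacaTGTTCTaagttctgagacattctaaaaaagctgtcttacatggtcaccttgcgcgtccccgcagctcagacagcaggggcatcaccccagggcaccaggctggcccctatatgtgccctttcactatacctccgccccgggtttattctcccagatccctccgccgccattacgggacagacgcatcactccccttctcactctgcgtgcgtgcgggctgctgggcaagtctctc
Fkbp5: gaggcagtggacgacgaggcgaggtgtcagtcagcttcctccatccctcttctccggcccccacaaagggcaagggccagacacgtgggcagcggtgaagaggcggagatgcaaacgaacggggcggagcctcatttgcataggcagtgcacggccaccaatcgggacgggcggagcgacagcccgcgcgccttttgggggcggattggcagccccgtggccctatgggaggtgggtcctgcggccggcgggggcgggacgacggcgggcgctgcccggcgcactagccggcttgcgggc
Ddit4: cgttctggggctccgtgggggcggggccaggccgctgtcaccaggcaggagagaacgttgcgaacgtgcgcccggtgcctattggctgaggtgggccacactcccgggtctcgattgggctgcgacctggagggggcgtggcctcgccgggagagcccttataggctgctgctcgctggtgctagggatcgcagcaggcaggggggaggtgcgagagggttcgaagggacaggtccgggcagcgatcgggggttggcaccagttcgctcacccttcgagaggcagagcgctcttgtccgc
A match is a run of letters and was not measured as a bound site here. Which start each array probe reports was not determined, and elements outside these windows were not searched.

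Nr3c1, the receptor gene, had 2 probes, and both passed the background test on every array. Its first probe (A_55_P1967885) measured 4.45 and 4.27 with control and 4.23 and 4.02 with knockdown supernatant at 3 h, and 4.32 and 4.28 against 4.03 and 4.18 at 6 h. All knockdown arrays lay below all control arrays, though the highest knockdown array (4.23) was closer to the lowest control array (4.27) than the replicates of its group were to each other. The difference was -0.22 ± 0.078 averaged over both times (SE, 2 arrays per group; limma adjusted p = 0.211), with a 95% interval of 0.754- to 0.984-fold, and was not called. The second probe (A_52_P254174) did not share this order. It measured -0.29 and -0.36 against -0.43 and -0.37 at 3 h and -0.58 and -0.47 against -0.57 and -0.26 at 6 h, for a difference of 0.015 ± 0.081 (limma adjusted p over all 30112 probes = 0.931). At 3 h it measured -0.078 ± 0.11 and at 6 h 0.11 ± 0.11, neither called. Over time neither was called, and the first changed by -0.060 ± 0.11 in control supernatant (limma adjusted p = 0.710).

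Hsd11b1, the enzyme that reactivates glucocorticoid, is printed on 10 spots per array, and the 8 to 10 spots used on an array had an SD between 0.030 and 0.078. Its level was 1.79 and 1.90 with control and 1.83 and 1.74 with knockdown supernatant at 3 h, and 1.58 and 1.71 against 1.63 and 1.71 at 6 h. Control and knockdown arrays overlapped at each time. The averaged supernatant difference was -0.021 ± 0.058 (limma adjusted p = 0.869), with a 95% interval of 0.892- to 1.09-fold. All 4 arrays at 6 h lay below all 4 at 3 h, yet neither change over time was called, at -0.20 ± 0.083 in control (adjusted p = 0.116) and -0.11 ± 0.083 in knockdown supernatant (adjusted p = 0.321). The change in control supernatant was called with scaling by the array median, at -0.40 (limma adjusted p = 0.0405), a scaling that moved the median of all features to -0.27 there.

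Fkbp5 encodes an immunophilin of the receptor complex that lowers the receptor's affinity for hormone. Its level was 2.98 and 2.88 with control and 2.95 and 2.90 with knockdown supernatant at 3 h, and 2.58 and 2.59 against 2.87 and 2.91 at 6 h. The 2 control arrays at 6 h stood below the other 6 arrays, which overlapped one another across groups. Fkbp5 fell with time in control supernatant, with a change of -0.35 ± 0.063 (limma adjusted p = 0.00766), and changed by -0.036 ± 0.063 in knockdown supernatant (adjusted p = 0.684). The supernatant difference was 0.30 ± 0.063 at 6 h (adjusted p = 0.0831) and -0.0073 ± 0.063 at 3 h (adjusted p = 0.990). The change of this difference between times was 0.31 ± 0.090 and was not called (limma unadjusted p = 0.0142, adjusted p = 0.474). The fall and the difference at 6 h rest on the same 2 control arrays. The fall was called in 16 of 20 alternatives. It was not with quantile normalization (-0.17, adjusted p = 0.0720), no scaling (adjusted p = 0.286), no filter on dim probes (adjusted p = 0.0578) or the 4 control arrays alone (adjusted p = 0.0511).

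Sgk1 encodes a serum- and glucocorticoid-regulated kinase that acts on ion channels and cell survival. Its level was 3.94 and 3.996 with control and 4.36 and 4.44 with knockdown supernatant at 3 h, and 3.42 and 3.52 against 3.79 and 3.87 at 6 h. The 4 groups did not overlap: knockdown at 3 h was highest, then control at 3 h, knockdown at 6 h and control at 6 h. Sgk1 was higher with knockdown supernatant by 0.43 ± 0.072 at 3 h (limma adjusted p = 0.114) and by 0.36 ± 0.072 at 6 h (adjusted p = 0.0762), neither of which was called. The average of both, 0.40 ± 0.051 or 1.315-fold, was called (limma adjusted p = 0.0205), and 9.18% of the tested features had a larger averaged difference in either direction. The call was lost without either array of the control 3 h, knockdown 3 h or knockdown 6 h group, with differences of 0.37 to 0.42 and adjusted p from 0.0592 to 0.104. It was also lost with no scaling (0.39, adjusted p = 0.362) and no filter on dim probes (0.40, adjusted p = 0.145), and the sign was the same in all 19 alternatives run. Over time Sgk1 fell in both supernatants, with changes of -0.50 ± 0.072 in control (adjusted p = 0.00323) and -0.57 ± 0.072 in knockdown (adjusted p = 0.00208), and only the values with no scaling were not called. Of the 4 macrophage and leukocyte markers tested, 1 was called higher with knockdown supernatant, Cd14 with 0.47 ± 0.058 (limma adjusted p = 0.0168), a call lost without any 1 array of the control 3 h, knockdown 3 h or knockdown 6 h group. The other 3 were not called, with Lyz2 at -0.47 ± 0.11 (adjusted p = 0.0978), Csf1r at -0.31 ± 0.18 (adjusted p = 0.391) and Itgam at 0.15 ± 0.062 (adjusted p = 0.257), and the median of the 4 was -0.081. The summed signal of these 4, in multiples of the array's 75th percentile, was 41.8 to 43.8 in control and 52.3 to 54.0 in knockdown at 3 h, and 36.6 to 41.9 and 37.2 to 40.1 at 6 h; their part in the result was not tested.

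**Figure D2:**
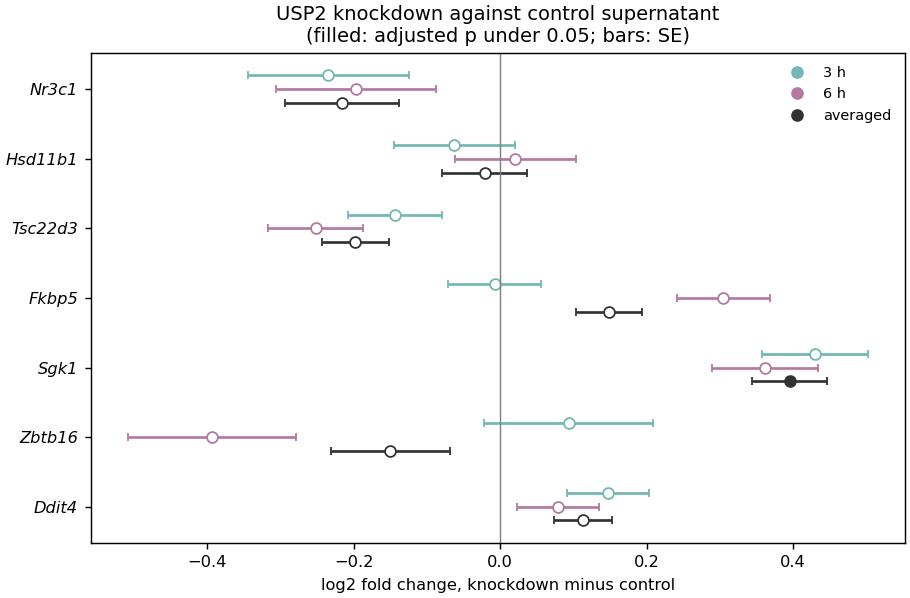
Log2 fold change of the 7 tested genes, knockdown minus control supernatant, at 3 h, at 6 h and averaged; points are limma estimates from 2 arrays per group, bars are standard errors and filled points had an adjusted p under 0.05. Of the 21 points only the averaged one of Sgk1, at 0.40, is filled, and Fkbp5 and Zbtb16 lie near 0 at 3 h and at 0.30 and -0.39 at 6 h.

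Tsc22d3 encodes GILZ, a leucine zipper protein that carries part of the anti-inflammatory action of glucocorticoids. Its level was 3.45 and 3.41 with control and 3.28 and 3.30 with knockdown supernatant at 3 h, and 3.99 and 3.89 against 3.68 and 3.70 at 6 h. The 4 groups did not overlap, and control lay above knockdown at both times. Tsc22d3 rose with time, by 0.51 ± 0.064 or 1.42-fold in control supernatant (limma adjusted p = 0.00197) and by 0.40 ± 0.064 in knockdown supernatant (adjusted p = 0.00494). Both rises were called in all 20 alternatives, which ranged from 0.31 to 0.69 and from 0.31 to 0.56. The supernatant difference ran opposite to that of Sgk1 and was not called: -0.14 ± 0.064 at 3 h (adjusted p = 0.520), -0.25 ± 0.064 at 6 h (adjusted p = 0.126) and -0.20 ± 0.046 averaged (adjusted p = 0.0902). It was below 0 in all 19 alternatives of the average.

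Ddit4 encodes REDD1, an inhibitor of the growth kinase complex mTORC1. Its level was 7.01 and 7.01 with control and 7.15 and 7.17 with knockdown supernatant at 3 h, and 6.83 and 6.83 against 6.93 and 6.88 at 6 h. The groups did not overlap and kept the order seen for Sgk1, over a range of only 0.34. This order depended on the scaling. Before the 75th percentile was subtracted, the second control 6 h array was brighter than both knockdown 6 h arrays. The supernatant difference was 0.11 ± 0.039 averaged (limma adjusted p = 0.200) and was not called. Ddit4 fell with time, with changes of -0.18 ± 0.056 in control (adjusted p = 0.0443) and -0.25 ± 0.056 in knockdown supernatant (adjusted p = 0.0156). The first call stood in only 5 of 20 alternatives and was lost without any 1 of the 8 arrays, with adjusted p from 0.0731 to 0.153. The second stood in 13 of 20 and was lost without any array of the knockdown 3 h or 6 h group. Both calls were also lost with quantile normalization, at -0.092 in control and -0.14 in knockdown supernatant (limma adjusted p = 0.266 and 0.116). They were lost too with no scaling (adjusted p = 0.684 and 0.771) and no filter on dim probes (adjusted p = 0.177 and 0.113).

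Zbtb16 encodes PLZF, a zinc finger transcription repressor. It was dim, at -4.19 and -3.96 with control and -3.99 and -3.98 with knockdown supernatant at 3 h, and brighter at -2.07 and -2.32 against -2.60 and -2.58 at 6 h. Every array was well above background, though the 3 h levels lay near the dimmest signals that passed that test on an array (-5.37 to -4.45). Control and knockdown overlapped at 3 h and were apart at 6 h. Zbtb16 rose by 1.88 ± 0.11 or 3.68-fold in control supernatant (limma adjusted p = 0.000213), a size exceeded by 2.18% of tested features, and by 1.39 ± 0.11 or 2.62-fold in knockdown supernatant (adjusted p = 0.000510). Both rises were called in all 20 alternatives, with ranges of 1.07 to 2.00 and 0.67 to 1.55. The supernatant difference was 0.093 ± 0.11 at 3 h (adjusted p = 0.877) and -0.39 ± 0.11 at 6 h (adjusted p = 0.159). The rises in the 2 supernatants differed by -0.49 ± 0.16 (knockdown minus control), which was not called (limma unadjusted p = 0.0253, adjusted p = 0.512).

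Cdkn1c encodes the cell cycle inhibitor p57. It was well above background only on the first control array at 3 h, at -4.45. The other 7 arrays measured between -6.48 and -4.83, so the gene was near the limit of detection and no fold is given.

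**Figure D3:**
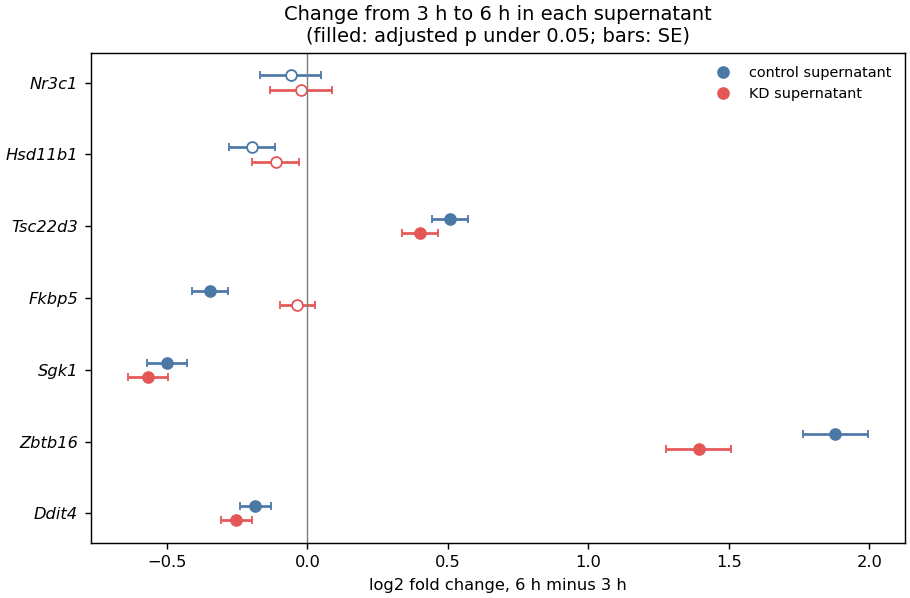
Log2 fold change of the 7 tested genes from 3 h to 6 h in control and in knockdown supernatant; points are limma estimates from 2 arrays per group, bars are standard errors and filled points had an adjusted p under 0.05. Zbtb16 and Tsc22d3 lie above 0 and Sgk1 and Ddit4 below 0 in both supernatants, while Fkbp5 lies at -0.35 in control and at -0.036 in knockdown supernatant.

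How the variance over the 8 arrays divided differed between the genes. Time took 96.0% of it for Zbtb16, 81.9% for Tsc22d3, 76.7% for Ddit4 and 63.4% for Sgk1. The supernatant took 34.9% for Sgk1, 20.5% for Ddit4 and 15.5% for Tsc22d3, and for these 4 genes at most 1.49% lay between replicates. Fkbp5 alone of the 7 had a large share, 28.2%, in the combination of time and supernatant. Nr3c1, by its first probe alone, had 2.27% for time, 62.2% for supernatant and 35.1% between replicates, while its second probe measured 0.015 ± 0.081 for the supernatant. Hsd11b1 had 64.3% for time, 1.18% for supernatant and 30.0% between replicates. These shares describe the 8 arrays and carry no test.

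Other genes with like profiles were sought among 12558 named genes well above background on all 8 arrays, by the root mean square difference of mean-centred log2 levels. Nearest to Tsc22d3 was Trnp1 at 0.021, then Zfp316 (0.039) and BC147527 (0.040), against a deviation of Tsc22d3 from its own mean of 0.25. Nearest to Sgk1 were Tjap1 (0.052), Dkc1 (0.052) and Btg1c (0.052), against 0.34. Fkbp5 had Map6 (0.040), Smchd1 (0.041) and Plekho2 (0.041), against 0.15, and Ddit4 had Fermt2 (0.032), Nmt1 (0.037) and Hinfp (0.037), against 0.13. Zbtb16, with a deviation of 0.83, had Tmco6 (0.12), P2ry10b (0.12) and 1700037C18Rik (0.12). No member was among these by construction, and likeness over 8 arrays is a description of them.

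Relatives of the members were measured too. Tsc22d1, of the same leucine zipper family as Tsc22d3, was higher with knockdown supernatant by 0.53 ± 0.057 at 3 h (limma adjusted p = 0.0457), 0.37 ± 0.057 at 6 h (adjusted p = 0.0381) and 0.45 ± 0.040 averaged (adjusted p = 0.00771), where Tsc22d3 measured -0.20. The single-time calls of Tsc22d1 each stood in 6 of 20 alternatives and the averaged one in 15 of 19. The 3 h call was lost without any 1 of the 8 arrays, and the 6 h call without any 1 but the second control 6 h array. Without either array of the knockdown 3 h group the averaged call was lost. Tsc22d1 did not change with time by the test (0.08 ± 0.057 in control, adjusted p = 0.311). Tsc22d4 measured 0.22 ± 0.062 over time in control supernatant (adjusted p = 0.0360), but turned to -0.72 when its probes were averaged, so its direction depended on the probe, and the call stood in 5 of 20 alternatives. Leaving out any 1 array but the second control 6 h array ended it, and Tsc22d2 was not called in any comparison. Of the kinase relatives, Sgk3 was not called in any comparison and Sgk2 fell with time, with changes of -0.81 ± 0.20 in control and -0.78 ± 0.20 in knockdown supernatant (adjusted p = 0.0236 and 0.0272). Sgk2 was dim and well above background on 1 of 2 knockdown 6 h arrays and on both arrays of the other groups. The first of these calls was lost without either control 3 h array or the first control 6 h array, and the second without any 3 h array or the first knockdown 6 h array. Zbtb7a, a zinc finger repressor, fell, with changes of -1.15 ± 0.068 and -1.13 ± 0.068 (adjusted p = 0.000193 and 0.000215), opposite to Zbtb16. Cdkn1b, the p27 relative of Cdkn1c, rose by 0.89 ± 0.079 and 0.86 ± 0.079 (adjusted p = 0.000592 and 0.000718). Fkbp4, Fkbp1a, Cdkn1a and Zbtb7b were not called in any comparison.

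Among 14 genes of the receptor complex and of hormone activation, 12 were tested. For the supernatant, limma called 0 at 3 h, at 6 h or averaged (0, 3 and 4 at an unadjusted p under 0.05). Of all features 0.244%, 2.30% and 3.13% were called, so 0 calls in a list this short says little. The averaged median was 0.089 against -0.011 for all features. The heat shock and co-chaperone genes Hsp90aa1, Hsp90ab1, Hspa8, Stip1, Ptges3, Fkbp4 and Bag1 were not called over time either. H6pd, which supplies cofactor to the Hsd11b1 enzyme, rose with time by 0.59 ± 0.081 in control (limma adjusted p = 0.00272) and 0.65 ± 0.081 in knockdown supernatant (adjusted p = 0.00195). Ppid, a cyclophilin of the receptor complex, fell, with changes of -0.51 ± 0.057 (adjusted p = 0.00121) and -0.29 ± 0.057 (adjusted p = 0.0105), the latter lost without the second array of knockdown 3 h or of knockdown 6 h.

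Among 11 receptor coregulators, all tested, 0 were called by limma for the supernatant at 3 h, at 6 h or averaged (3 in each at an unadjusted p under 0.05). Of all features 0.244%, 2.30% and 3.13% were called, so these 0 calls say little either. Over time in control supernatant 6 fell and 1 rose, with a median of -0.37 against -0.074 for all features. In knockdown supernatant 5 fell and 1 rose, with a median of -0.15 against -0.11. Of all features 23.6% fell and 16.3% rose in control supernatant, and 22.2% fell and 17.7% rose in knockdown supernatant. With single arrays left out, 3 to 6 fell in control and 3 to 5 in knockdown supernatant, the lowest without the second control 3 h and the first knockdown 3 h array. The coactivator Ncoa3 fell, with changes of -0.89 ± 0.097 in control (limma adjusted p = 0.00116) and -0.53 ± 0.097 in knockdown supernatant (adjusted p = 0.00793). The acetyltransferase Ep300 measured -0.57 ± 0.094 and -0.59 ± 0.094 (adjusted p = 0.00521 and 0.00479), and the corepressor Ncor1 -0.46 ± 0.064 and -0.45 ± 0.064 (adjusted p = 0.00279 and 0.00306). The gene that rose was Ppargc1a, a coactivator of mitochondrial genes, with 0.73 ± 0.20 and 0.94 ± 0.20 (adjusted p = 0.0326 and 0.0137), named here after its values were seen. The 2 calls of Ppargc1a stood in 8 and 15 of 20 alternatives; both were lost without either knockdown 3 h or either knockdown 6 h array, and the first also without the second control 3 h or first control 6 h array.

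Of 32 glucocorticoid-induced genes, among them the 6 targets above, 30 were tested. With knockdown supernatant 3 were higher and 0 lower at 3 h, and 5 higher and 0 lower at 6 h. Averaged, 6 were higher and 2 lower, with a median of 0.075 against -0.011 for all features. Of all features 0.225%, 1.60% and 2.16% were higher and 0.0194%, 0.698% and 0.965% lower at 3 h, at 6 h and averaged. This list was chosen with earlier results of these data known. Higher on average were Sgk1 and the transcription factor Cebpd with 1.16 ± 0.060 (limma adjusted p = 0.00222), the lipase inhibitor Angptl4 with 0.71 ± 0.048 (adjusted p = 0.00417) and the growth factor receptor inhibitor Errfi1 with 0.69 ± 0.041 (adjusted p = 0.00341). Nfkbia, an NF-kB inhibitor, followed with 0.34 ± 0.045 (adjusted p = 0.0223). Named after their values were seen, Gadd45b was higher with 0.34 ± 0.059 (adjusted p = 0.0471), and Snai2 and Txnip were lower with -0.35 ± 0.054 and -0.30 ± 0.052 (adjusted p = 0.0350 and 0.0486). The calls of Cebpd, Angptl4 and Errfi1 stood in 19, 18 and 18 of 19 alternatives, and those of Nfkbia, Gadd45b, Snai2 and Txnip in 10, 6, 8 and 4. The last 4 calls were each lost without any 1 array of the control 3 h, knockdown 3 h or knockdown 6 h group. Those of Snai2 and Txnip were also lost without the first control 6 h array, and that of Gadd45b without the second. With single arrays left out, 0 to 1 induced genes were higher at 3 h, 2 to 4 at 6 h and 3 to 6 averaged, and 0 to 2 were lower averaged. Cebpd, Angptl4, Errfi1 and Nfkbia are also known to be raised by inflammatory or growth signals, and what raised them here was not tested. Averaged, 22 of the 30 tested genes were not called, and the whole list ran from -0.99 to 1.16. Among the 22 were the metallothioneins Mt1 and Mt2, Per1, Klf9 and Glul, picked here by name and not by their values' place in the list. They measured -0.04 ± 0.070, -0.03 ± 0.083, 0.05 ± 0.070, 0.21 ± 0.048 and -0.10 ± 0.077 (limma adjusted p = 0.791, 0.864, 0.702, 0.0923 and 0.532), and do not stand for the other uncalled genes.

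Over time the induced genes split evenly. In control supernatant 10 rose and 10 fell, where 16.3% of all features rose and 23.6% fell. In knockdown supernatant 8 rose and 8 fell, where 17.7% of all features rose and 22.2% fell. The medians were 0.016 and 0.027, against -0.074 and -0.11 for all features. Leaving out any 1 array made these counts lower in control supernatant and the same or lower in knockdown supernatant. Txnip, an inhibitor of thioredoxin, rose by 1.62 ± 0.074 in control supernatant (limma adjusted p = 0.000121) and Snai2, a repressor of epithelial genes, by 1.43 ± 0.077 (adjusted p = 0.000158). Errfi1 fell, with a change of -1.60 ± 0.059 (adjusted p = 0.000102), and Klf9, a Krüppel-like factor, with one of -1.52 ± 0.068 (adjusted p = 0.000115). These 4 moved the same way in knockdown supernatant, at 1.65, 1.64, -1.43 and -1.41. Beside the changes with time, Fabp5 and Cebpa of the 5 tested adipocyte markers fell in both supernatants and Fabp4 in knockdown supernatant. Their 5-gene summed signal, in multiples of the 75th percentile, was 234.6 to 241.7 at 3 h and 189.9 to 207.8 at 6 h over both supernatants, and its part in the changes was not tested.

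Of 14 inflammatory genes that glucocorticoids repress, 11 were tested. With knockdown supernatant 3 were higher at 3 h, 6 at 6 h and 8 averaged, and 0 were lower in each. Of all features 0.225%, 1.60% and 2.16% were higher and 0.0194%, 0.698% and 0.965% lower. The list medians were 0.56, 0.54 and 0.60, against -0.016, 0.00022 and -0.011 for all features. This list was chosen with earlier results of these data known, so its counts and medians describe it and are no independent test. The cytokine gene Il6 was higher by 1.65 ± 0.064 averaged (limma adjusted p = 0.00139), the prostaglandin synthase gene Ptgs2 by 1.18 ± 0.065 (adjusted p = 0.00278), and the chemokine genes Ccl2 and Ccl7 by 0.83 ± 0.062 and 0.47 ± 0.043 (adjusted p = 0.00532 and 0.00830). Without any 1 array of the control 3 h, knockdown 3 h or knockdown 6 h group, the 3 h calls of Il6 and Ptgs2 were lost, and their averaged calls stood in all 19 alternatives. The averaged call of Ccl7 was lost without any 1 array of the control 3 h or knockdown 3 h group. With single arrays left out, 0 to 2 repressed genes were higher at 3 h, 3 to 7 at 6 h and 3 to 9 averaged. Over time 7 fell and 1 rose in control supernatant and 6 fell and 1 rose in knockdown supernatant. Of all features 23.6% fell and 16.3% rose in control supernatant, and 22.2% fell and 17.7% rose in knockdown supernatant. The list medians over time were -0.45 in control and -0.71 in knockdown supernatant, against -0.074 and -0.11 for all features. With single arrays left out, 4 to 7 fell and 1 to 2 rose in control supernatant, the 4 without the first control 3 h array and the 2 without the second control 6 h array, and 5 to 7 fell in knockdown supernatant. Ptgs2 fell, with a change of -1.04 ± 0.092 in each (adjusted p = 0.000578 and 0.000628), and the gene that rose was Nos2, the inducible nitric oxide synthase, with 2.31 ± 0.099 and 2.23 ± 0.099 (adjusted p = 0.000113 and 0.000130). Il1b, Tnf and Icam1 did not pass the background test on any array.

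**Figure D4:**
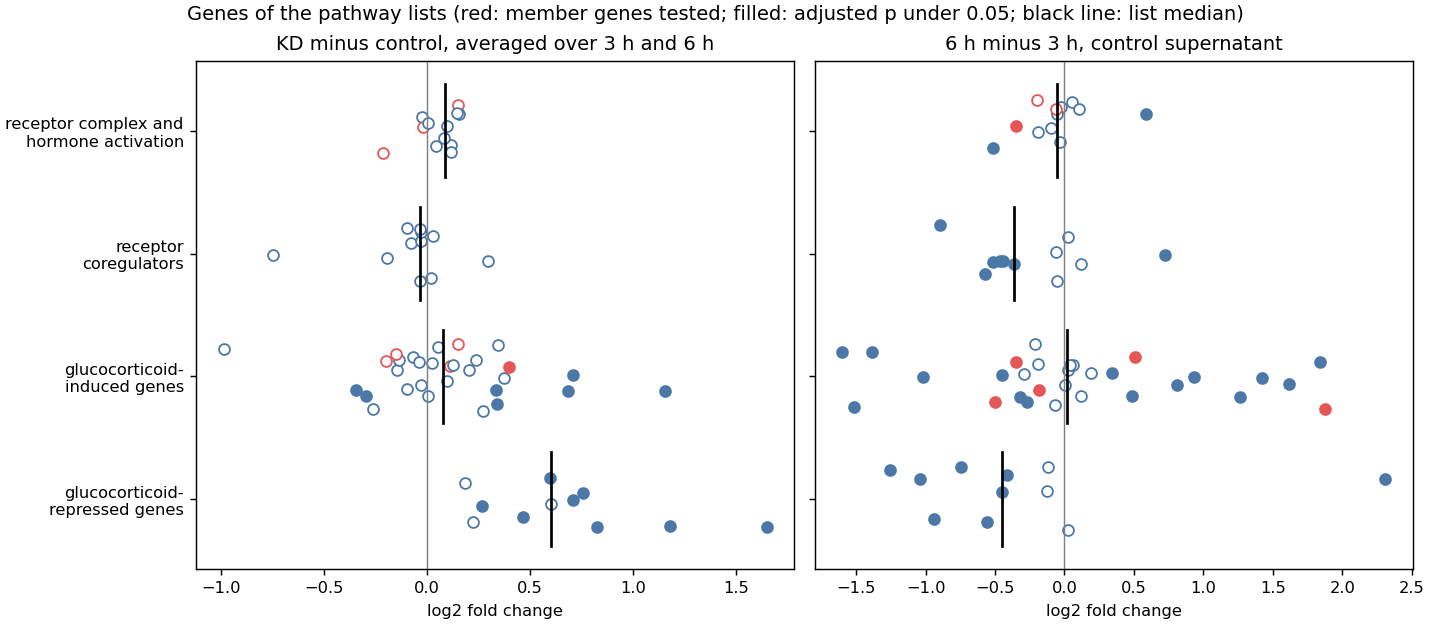
Log2 fold change of the tested genes of 4 lists, for knockdown minus control supernatant averaged over both times (left) and for 6 h minus 3 h in control supernatant (right); each point is 1 gene from limma with 2 arrays per group, filled points had an adjusted p under 0.05, red points are members and black lines are list medians. In the left panel the repressed genes all lie above 0 with a median of 0.60, and in the right panel the coregulators have a median of -0.37. The lists were chosen with earlier results of these data known.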

How the data were processed

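Total RNA of 8 cultures was measured on 1-colour Agilent arrays, 2 for each of 4 groups taken from the labels. Per the submitters' processing notes the scanner output came from Agilent Feature Extraction 10.7.3.1. For each spot the authors' deposited files give a processed signal, a linear intensity with background subtracted and spatial trend removed and no scaling across arrays, per the file headers. Median spot and background intensity, deposited too, served an alternative. A deposited value table holds log2 values and served another. Against the processed signal on the log2 scale it differed by a constant per array (correlation 1, median difference 0.215 to 0.255), with medians of -3.95 to -4.23, so its scale is log2 and it is not centred per gene. Between 163 and 319 spots per array marked as outliers were left out. No member spot lay in the bright patches of the 6 h control arrays (2.36% and 1.25% of their spots).

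Log2 signals were reduced by the array's 75th percentile, which was 478 to 621, and averaged over a probe's spots. RefSeq names (GRCm38.p6) were found for 27235 of 55681 probes by transcript and for 20 by symbol or synonym, and the other 28426 were tested without a name. A probe entered where some group had it well above background on both its arrays (30112), and the probe with the highest mean stood for a gene, leaving 25798 features. limma 3.58.1 (lmFit, eBayes) in R 4.3.3 fitted 4 group means (residual degrees of freedom 4, prior 1.74), and Benjamini-Hochberg adjusted p-values over all features of a comparison. The number of arrays limits the precision.

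The members and lists were chosen with earlier results of these data known. Named beside the members are up to 4 genes of a list per comparison with the smallest p among those called, the relatives well above background on all arrays of a group, and the 3 genes with the most like profile for each member called. Some genes fall outside this rule, among them uncalled list genes and those said to be named after their values were seen. Replicate numbers are shared by the groups, but the correlations of same-numbered deviations, -0.047 to 0.087, did not pair the samples. Alternatives were background correction, scaling, the value table, masked patches, filters, probe averaging, array weights, a replicate block, leaving out each array, and fits of the compared arrays alone. Tables and figures used matplotlib 3.10.9, pandas 2.3.3, numpy 2.4.6 and Python 3.11.15.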

Additional observations from a re-analysis of the deposited data

How the results depend on the processing

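The number of members called was within 1.5 times its value under most of the 20 alternatives (19 for the average and the difference of effects). At 3 h it went from 0 to 1 with array weights (Sgk1, adjusted p = 0.0427). At 6 h it went from 0 to 1 with array median scaling (Fkbp5, 0.49, adjusted p = 0.0449), which moved the median of all features to 0.19. The averaged count of 1 went to 0 with no scaling and no filter on dim probes, and ranged from 0 to 1 when single arrays were left out. Over time in control supernatant the 5 became 3 with quantile normalization, 2 with no scaling, 3 with no filter and 3 with the 4 compared arrays alone; in knockdown supernatant the 4 became 2 with no scaling. With no filter 49094 features were tested, and the cause of the other changes was not tested. Reversed over time in control supernatant were Med1 (-0.67), Vcam1 (-0.20) and Tsc22d4 (-0.72) with probes averaged. Lif reversed there, to 1.08, without the second control 6 h array only, and measured -1.32 without the first. In knockdown supernatant Tsc22d4 (-0.60) reversed with probes averaged.

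Over all features, calls for the supernatant at 3 h, at 6 h and averaged were 63, 593 and 807. They were 25, 1075 and 1220 with array median scaling, 0, 96 and 150 with no scaling, 0, 18 and 76 with no filter, and 128, 567 and 706 with normexp background. They were 310, 194 and 725 with array weights, and 0 and 0 at 3 h and 6 h with the 4 compared arrays alone. Leaving out single arrays gave 0 to 35, 144 to 1955 and 109 to 2000. Over time the calls were 10293 in control and 10300 in knockdown supernatant, 5739 and 5498 with no scaling, and 7196 to 10363 and 6704 to 11862 with single arrays left out, the 6704 without the first knockdown 3 h array.

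Replicate numbers did not pair the samples. With the replicate as a block, members called were 0, 0, 1, 0, 4 and 4 in the 6 comparisons against 0, 0, 1, 0, 5 and 4, Ddit4 being lost over time in control supernatant (adjusted p = 0.0629), and all features called were 0, 223, 510, 0, 10025 and 10171. Slide column and row could not be fitted, since each holds 1 supernatant or 1 time. The number of arrays and their signal over background limit what could be called, as for Cdkn1c.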
